A study of Homo sapiens with 18 samples.

Results

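The genes described here are 10 genes of lung alveolar cells, chosen by name: the surfactant protein genes SFTPB, SFTPC and SFTPD, the lamellar body genes ABCA3 and LAMP3, the forkhead factor genes FOXA1, FOXA2 and FOXA3, and the water channel genes AQP3 and AQP5. The choice was made with earlier results of these data known. The genes are 10 of the 30484 gene names carried by the arrays. All probes with one of these names were taken, which gave 17 of the 41000 probes, and 16 of the 17 passed the filter on missing values that left 28665 probes. The second AQP5 probe was removed because it was missing on 14 of the 18 arrays.

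Expression was measured on one-colour Agilent arrays in A549 cells, an established human lung adenocarcinoma line often used as a stand-in for alveolar type II epithelium. There were 18 arrays in 6 groups, each with biological replicates A, B and C. Treated cells received Ludox® silica NPs, which are colloidal particles of amorphous silica, for 2 h at 0.02 mg/mL without serum, and then recovered in complete medium. The groups were SM30 NPs (diameter 9 nm) with 3 h of recovery, AS30 NPs (18 nm) with 3 h of recovery, AS30 NPs with 22 h of recovery, and for each of them a control group handled the same way without NPs. All groups are the same tumour line in monolayer, with no other cell type and no air interface.

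In the alveolus, type II cells make surfactant, a film of phospholipid and proteins that lowers surface tension and keeps air spaces open. SFTPB and SFTPC are small hydrophobic proteins of that film, SFTPD is a secreted lectin of lung defence, and the lipid is loaded by the transporter ABCA3 into lamellar bodies, whose membrane also holds LAMP3. FOXA1, FOXA2 and FOXA3 are pioneer factors that open chromatin in endodermal organs, and in lung FOXA1 and FOXA2 act with NKX2-1 on surfactant genes. AQP5 is a water channel best known from alveolar type I cells and glands, and AQP3 passes water and glycerol in airway and other epithelia.

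The arrays lie on 5 slides, and SM30 and AS30 arrays shared no slide and no scan day. The 3 treated arrays of AS30 at 3 h lie on another slide than their controls, so slide and treatment cannot be told apart there except through single 22 h controls on the same slides. Of the SM30 arrays, the 3 controls and treated array A share a slide, and treated arrays B and C lie on another without a control. For SM30, slide and treatment are thus separated only through treated array A. SM30 control A was scanned on another day than the other SM30 arrays. The share of spots well above background, a flag set by the scanner software, was 51.9% to 61.9% over the AS30 controls, 56.9% to 67.1% over the AS30 treated arrays, 65.5% to 69.9% over the SM30 controls and 69.0% to 72.4% over the SM30 treated arrays. This share moved with treatment and with the SM30 and AS30 sets, and its part in the results was not tested. All 6 epithelial markers were well above background on all 18 arrays, against 4 of 10 type II markers (SFTPC, SFTPA1, ABCA3 and NAPSA), and SFTPA2 was on none. Of the other type II markers, NKX2-1 was well above background on 17 arrays, SLC34A2 on 10, SFTPD on 9, LAMP3 on 6 and SFTPB on 1. Markers of other cell types were also well above background on all 18 arrays: 5 of 9 for type I, 2 of 4 basal and 2 of 5 leukocyte. The count was 1 of 4 for club, 1 of 4 for ciliated, 1 of 6 for fibroblast and 0 of 4 for endothelial markers. By this flag type II markers do not stand out from those of other cell types. No reference cells were measured, and a detection flag on short lists does not settle how far the type II label holds for these cells.

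Changes are given as log2 ratios of each treated array over the control array of the same letter, averaged over pairs A, B and C. The test was limma, a Benjamini-Hochberg adjustment was made across every probe in the fit, and an adjusted p under 0.05 counted as a pass. The 3 exposures were fitted together and share a single estimate of spread for each probe. An SE, interval or p for an exposure thus also carries the scatter of the pairs of the other exposures. After SM30 at 3 h, 1 of the 16 tested probes of these genes passed, and it was lower. Of all 28664 probes tested there, 7.49% passed, 4.35% higher and 3.13% lower. After AS30 at 3 h, 1 of 16 passed, also lower, against 2.52% of all probes, 1.5% higher and 1.01% lower. After AS30 at 22 h, 3 of 15 passed, all lower and in 2 genes, against 3.58% of all probes, 2.54% higher and 1.04% lower.

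The called probes belonged to FOXA3 and AQP3. Ratios were negative for 14 of 16 probes after SM30, 11 of 16 after AS30 at 3 h and 13 of 15 after AS30 at 22 h. Their medians were −0.48, −0.43 and −0.42, beside −0.05, 0.01 and −0.00 over all probes. At an unadjusted p under 0.05, 6, 6 and 8 of the probes would pass, beside 25.1%, 24.4% and 22.9% of all probes in the same limma fit. Probes of the same gene share its transcript, so these counts hold fewer than 16 separate observations. The genes were also chosen with earlier results of these data known, so the counts and medians are a description and no independent support. The sign counts and medians include dim probes that give no measured level difference. Among them are SFTPB in each exposure, and FOXA3 on A_23_P142174 and SFTPC on A_23_P95213 at 22 h.

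**Figure D1:**
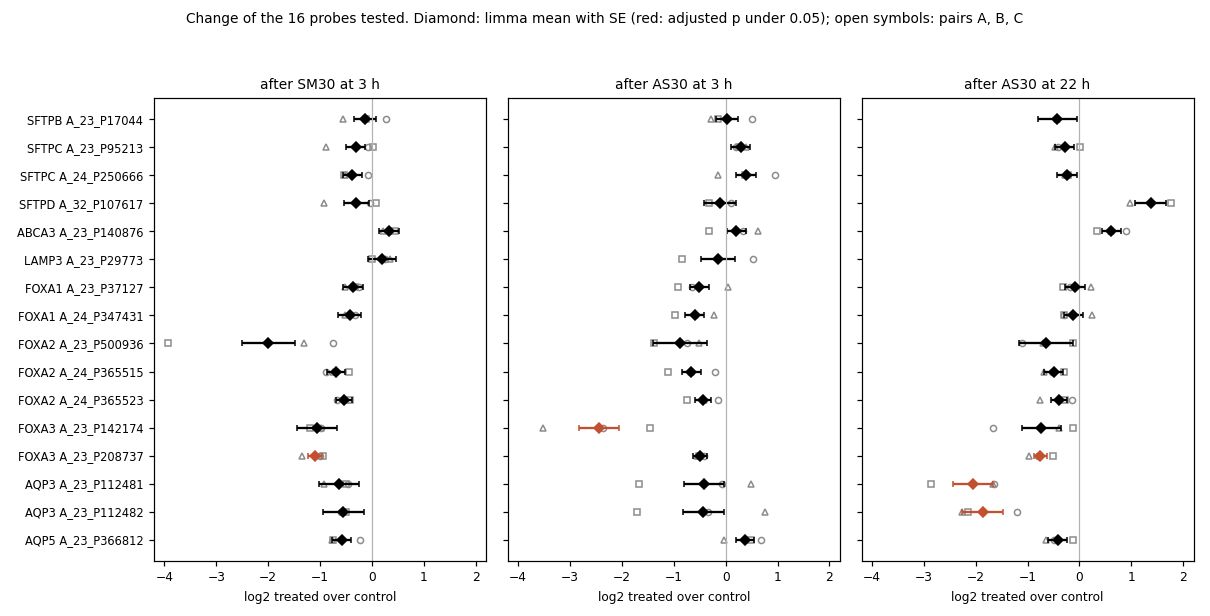
Log2 ratio of treated over control on the horizontal axis for each of the 16 tested probes, in 1 panel per exposure, with the limma mean and its SE as diamonds and pairs A, B and C as open symbols. Red diamonds passed an adjusted p of 0.05: FOXA3 at −1.10 after SM30, FOXA3 at −2.45 after AS30 at 3 h, and FOXA3 at −0.75 with AQP3 at −2.06 and −1.87 after AS30 at 22 h.

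FOXA3 was lower after both NPs, on 1 of its probes per exposure past the threshold. FOXA3 is the forkhead factor best known from liver and gut, where it binds many of the same sites as FOXA1 and FOXA2. Probe A_23_P208737 (hg18, chromosome 19, 51068670 to 51068729, plus strand) was well above background on all 18 arrays. Its normalized log2 signal was 9.24, 9.20 and 9.47 in SM30 controls A, B and C and 8.24, 8.25 and 8.13 in the matching treated arrays. The treated arrays all lie below the controls, by nearly the same amount in each pair. Expression fell 2.14-fold, a log2 change of −1.10 (SE 0.13, n = 3 pairs, limma adjusted p = 0.00371).

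With AS30, the same probe gave 9.37, 9.64 and 9.71 in the 3 h controls and 8.94, 9.12 and 9.17 in the treated arrays. The groups do not overlap, but the change of −0.50 (95% interval −0.79 to −0.20) did not pass (limma adjusted p = 0.0783). At 22 h the controls were 9.52, 9.73 and 9.48 and the treated arrays 8.73, 9.23 and 8.52. FOXA3 fell 1.68-fold there, by −0.75 (SE 0.13, n = 3, limma adjusted p = 0.0262), with all 3 treated arrays below the controls. With slide as a block the change was −1.06 after SM30 (adjusted p = 0.0582) and −0.66 after AS30 at 22 h (adjusted p = 0.509), so neither call held in that fit. Within a slide, where 1 array stands against 3, the same changes gave an adjusted p of 0.0675 and 0.469.

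The other FOXA3 probe, A_23_P142174 (hg18, chromosome 19, 51068021 to 51068080, plus strand), was dim and less steady. It was well above background on 11 of the 18 arrays and correlated with the first probe at r = 0.67 over the 18 arrays. In AS30 controls at 3 h it gave 7.93, 5.96 and 8.62, and in the treated arrays 5.57, 4.5 and 5.10, of which 1 was well above background. Controls A and C stand above all other arrays of the series on this probe. The fitted change was −2.45 (SE 0.38, n = 3 pairs, limma adjusted p = 0.0225) between groups that do not overlap, and its size rests on treated signals of which 2 were not well above background. With normexp background correction the change was −0.68 (adjusted p = 0.0423). With slide as a block it was −2.65 with an adjusted p of 0.723, and without pair A the call was lost.

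After SM30 this probe gave 4.66, 4.58 and 4.31 against 5.64, 5.78 and 5.28 in controls, a change of −1.05 that did not pass (95% interval −1.93 to −0.18, limma adjusted p = 0.134). Its SM30 pairs had an SD of 0.13 and its AS30 pairs at 3 h an SD of 1.04, and the shared spread carries both. With normexp background correction the SM30 change was −0.12 (adjusted p = 0.643), and the first probe gave −0.63 there (adjusted p = 0.00306). After AS30 at 22 h its controls, at 6.0, 6.21 and 5.68, stood above background on none of the 3 by that flag, and the treated arrays were 4.33, 6.09 and 5.28. The 22 h change of −0.73 is therefore not a measured level difference (95% interval −1.61 to 0.14, limma adjusted p = 0.296).

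FOXA2 was lower in every pair after both NPs on all 3 of its probes, and no probe passed the threshold in the paired fit. FOXA2 is the family member tied most closely to surfactant and to restraint of mucous genes in airway epithelium. Probe A_24_P365515 (hg18, chromosome 20, 22510164 to 22510223, minus strand) gave 11.16, 11.10 and 11.21 in SM30 controls and 10.28, 10.66 and 10.47 in treated arrays. Its AS30 controls at 3 h were 11.08, 11.58 and 11.31, with treated arrays at 10.88, 10.47 and 10.64, and at 22 h the controls were 11.65, 11.66 and 11.59 with treated arrays at 11.13, 11.37 and 10.90. In all 3 exposures the treated arrays lie below the controls without overlap. The changes were −0.69 (95% interval −1.10 to −0.29), −0.66 (−1.07 to −0.26) and −0.50 (−0.91 to −0.09), with limma adjusted p-values of 0.0525, 0.0837 and 0.148. Whether FOXA2 passed after SM30 depended on the fit: all 3 probes passed without letter pairing (adjusted p = 0.0131 for this probe, 0.0274 for A_24_P365523 and 0.0354 for A_23_P500936) and with slide as a random block (0.00997, 0.0215 and 0.0187). After AS30 at 3 h this probe also passed in both of these fits (adjusted p = 0.0284 and 0.00844). With slide as a fixed block, 0 probes of these genes passed after SM30 and 0 after AS30 at 3 h. The random block, with a correlation within slides of −0.08, called 10.7% of all probes after SM30 and 13.7% after AS30 at 3 h. Without letter pairing these shares were 8.78% and 4.59%.

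Probe A_24_P365523 (chromosome 20, 22510478 to 22510537) moved with it, at r = 0.92 over the 18 arrays. It gave 8.41, 8.41 and 8.33 in SM30 controls and 7.73, 7.98 and 7.83 in treated arrays, a change of −0.54 (95% interval −0.90 to −0.17, limma adjusted p = 0.0784). After AS30 the changes were −0.43 at 3 h (adjusted p = 0.149) and −0.39 at 22 h (adjusted p = 0.19). Only at 22 h do its groups overlap among the 3 exposures.

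On the brightest FOXA2 probe, A_23_P500936 (chromosome 20, 22509884 to 22509943), the size of the SM30 change rests largely on 1 array. SM30 controls were 12.26, 12.55 and 12.69, and treated arrays were 11.50, 8.63 and 11.38. Treated array B lies far below A and C here but not on the other FOXA2 probes, and its spot carried no outlier flag. The change was −2.0 (SE 0.52, n = 3, limma adjusted p = 0.0538) and −1.03 without pair B (adjusted p = 0.146). After AS30 it was −0.88 at 3 h and −0.65 at 22 h, with groups that do not overlap and adjusted p-values of 0.324 and 0.498. The SM30 pairs, with an SD of 1.69, enter the shared spread of these AS30 tests, whose own pairs had SDs of 0.45 and 0.50.

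FOXA1 passed no test. FOXA1 is best known for directing nuclear receptors in breast and prostate and shares its role in lung with FOXA2. Probe A_23_P37127 (hg18, chromosome 14, 37129297 to 37129356, minus strand) is spotted 10 times on each array, with a median SD between spots of 0.09. It gave 8.53, 8.54 and 8.66 in SM30 controls and 8.28, 8.21 and 8.14 in treated arrays, which do not overlap. The change of −0.36 (95% interval −0.79 to 0.07) did not pass (limma adjusted p = 0.268). The AS30 controls at 3 h spread from 8.02 to 9.15 over the 3 replicates, wider than the change of −0.51 (95% interval −0.94 to −0.08, adjusted p = 0.155), and pair C had a ratio of 0.05.

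The other FOXA1 probe, A_24_P347431, followed the first at r = 0.98 over 17 arrays. Its spot on SM30 treated array B, at 8.03, was marked as an outlier by the software and left out, and arrays A and C were 9.78 and 9.75 against controls of 10.12, 10.16 and 10.27. The change after SM30 was −0.43 (95% interval −0.94 to 0.08, n = 2 pairs, limma adjusted p = 0.271) and after AS30 at 3 h −0.60 (−1.01 to −0.18, n = 3, adjusted p = 0.112). At 22 h the changes of the pair of probes were −0.09 and −0.11, with intervals from −0.52 to 0.34 and from −0.53 to 0.30.

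**Figure D2:**
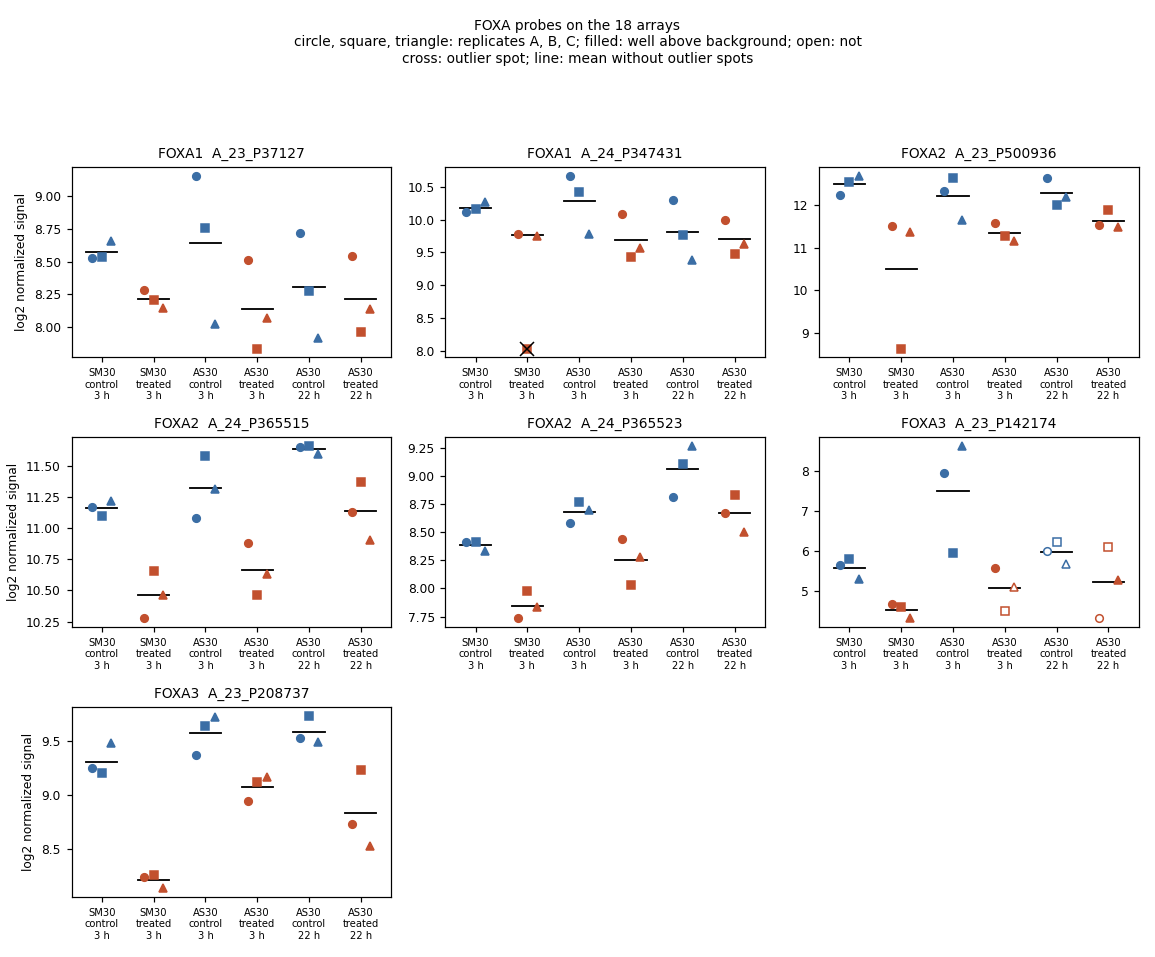
Normalized log2 signal of the 7 FOXA probes on the 18 arrays, by group, with controls in blue, treated arrays in red, replicates A, B and C as circle, square and triangle, and the group mean as a line. Filled symbols are well above background and the cross marks an outlier spot. The FOXA3 probe A_23_P208737 falls from a mean of 9.31 to 8.21 after SM30, while A_23_P142174 has AS30 controls at 3 h from 5.96 to 8.62.

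AQP3 fell after AS30 at 22 h on both of its probes, the largest called changes at that time among these genes. Probe A_23_P112481 (hg18, chromosome 9, 33431565 to 33431624, minus strand) gave 10.08, 9.87 and 8.83 in the 22 h controls and 8.43, 7.01 and 7.17 in the treated arrays. Every treated array lies below every control, with control C and treated array A nearest to each other. AQP3 fell 4.17-fold, by −2.06 (SE 0.39, n = 3 pairs, limma adjusted p = 0.0325). Probe A_23_P112482 (33431765 to 33431824) gave 8.30, 7.71 and 7.89 in controls and 7.10, 5.57 and 5.64 in treated arrays, of which array B was not well above background. On that probe AQP3 fell 3.64-fold, by −1.87 (SE 0.39, n = 3, limma adjusted p = 0.0435).

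The size and the calls of AQP3 at 22 h depend on the fit. With normexp background correction the changes were −1.05 (adjusted p = 0.0362) and −0.59 (adjusted p = 0.0366). With slide as a block the changes were −1.30 (adjusted p = 0.782) and −1.79 (adjusted p = 0.706), and leaving out any pair lost both. The 22 h treated arrays lie on 1 slide with control C, and within that slide the adjusted p was 0.768 and 0.683.

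At 3 h the AQP3 probes passed neither test. SM30 controls were 9.52, 9.72 and 10.03 on A_23_P112481 and treated arrays 9.05, 9.22 and 9.10, a narrow set below the controls. The changes were −0.63 (95% interval −1.52 to 0.25, limma adjusted p = 0.346) and −0.55 (−1.45 to 0.35, adjusted p = 0.423) on the 2 probes. On A_23_P112482 the SM30 pairs had an SD of 0.05 and the AS30 pairs at 3 h an SD of 1.24. The width of its SM30 interval therefore does not reflect scatter among the SM30 pairs. After AS30 probe A_23_P112481 gave 10.35, 9.78 and 8.25 in controls and 10.27, 8.11 and 8.74 in treated arrays. The pairs point both ways, at −0.07, −1.68 and 0.48, and the mean changes were −0.42 (95% interval −1.31 to 0.46) and −0.43 (−1.33 to 0.47). The change at 22 h lay below that at 3 h by a log2 difference of −1.64 (95% interval −2.89 to −0.39, limma adjusted p = 0.214) and −1.44 (−2.71 to −0.16, adjusted p = 0.254), and this difference did not pass.

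AQP5 was measured by probe A_23_P366812 (hg18, chromosome 12, 48645088 to 48645147, plus strand), well above background on all 18 arrays. SM30 controls were 7.49, 7.44 and 7.31 and treated arrays 7.26, 6.68 and 6.54, so the treated arrays lie lower, array A by little. The change was −0.59 (95% interval −1.0 to −0.18, limma adjusted p = 0.0869). AS30 controls at 3 h were 7.39, 7.76 and 8.19 and treated arrays 8.08, 8.24 and 8.16, with a change of 0.38 (95% interval −0.03 to 0.79, adjusted p = 0.237). The treated arrays are close together at the upper end of controls that spread widely. At 22 h the controls of 7.74, 7.53 and 7.71 stood above the treated arrays of 7.25, 7.41 and 7.06, with a change of −0.42 (95% interval −0.83 to −0.01, adjusted p = 0.209). The other AQP5 probe was well above background on 0 of the 18 arrays.

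**Figure D3:**
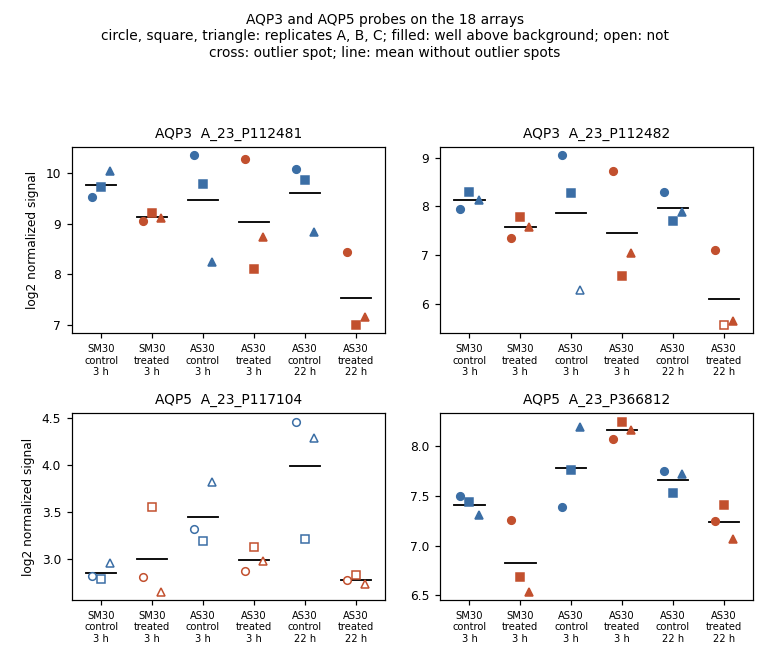
Normalized log2 signal of the AQP3 and AQP5 probes by group, drawn as in the plot of FOXA probes. Both AQP3 probes drop in the AS30 treated group at 22 h, from means of 9.59 to 7.54 and from 7.97 to 6.10, while the AQP5 probe A_23_P117104 has filled symbols on no array.

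ABCA3, the lipid transporter of lamellar bodies, was well above background on all 18 arrays and was the gene here with positive mean changes in all 3 exposures, none of which passed. Probe A_23_P140876 (hg18, chromosome 16, 2266264 to 2266323, minus strand) gave 9.93, 9.90 and 9.93 in SM30 controls and 10.26, 10.34 and 10.14 in treated arrays. The SM30 groups do not overlap, and the change was 0.33 (95% interval −0.10 to 0.75, limma adjusted p = 0.31). After AS30 at 3 h the pairs were mixed, at 0.33, −0.33 and 0.63, with a mean of 0.21. At 22 h the controls were 10.39, 10.03 and 10.40 and the treated arrays 11.30, 10.36 and 11.01, a change of 0.62 (95% interval 0.19 to 1.04, limma adjusted p = 0.101) with treated array B inside the control range.

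SFTPC was the surfactant protein gene best measured here. Probe A_24_P250666 was well above background on all 18 arrays and gave 8.01, 8.05 and 7.99 in SM30 controls against 7.93, 7.51 and 7.48 in treated arrays. Its AS30 controls at 3 h were 8.23, 8.44 and 8.91 with treated arrays at 9.17, 8.81 and 8.77, and at 22 h the controls were 8.39, 8.51 and 8.21 with treated arrays at 8.15, 8.28 and 7.94. The changes were −0.37 (95% interval −0.81 to 0.06), 0.39 (−0.05 to 0.83) and −0.25 (−0.68 to 0.19), with limma adjusted p-values of 0.264, 0.245 and 0.485. None passed, and the signs differ between SM30 and AS30 at 3 h. The dimmer SFTPC probe, A_23_P95213, correlated with it at r = 0.27 over the 18 arrays, ranged only from 5.27 to 6.22, and gave changes of −0.31, 0.29 and −0.29. At 22 h its controls were well above background on 0 arrays, so the value of −0.29 is not a measured level difference.

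SFTPB, SFTPD and LAMP3 were near the detection limit. The SFTPB probe (chromosome 2, minus strand, spanning 1296 bases of hg18 from 85742708 to 85744003) ranged from 2.78 to 5.09 over the 18 arrays and was well above background on 1 of them, AS30 treated array A at 3 h. Its levels are thus bounds and give no ratio. The LAMP3 probe (chromosome 3, 184322757 to 184322816, minus strand) ranged from 2.78 to 4.75, was well above background on 6 arrays, of which 5 were SM30 treated or control arrays, and could not be tested at 22 h because all 3 controls were missing there. Its SM30 change was 0.20 (95% interval −0.47 to 0.88, limma adjusted p = 0.693).

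SFTPD (probe A_32_P107617, chromosome 10, 81687713 to 81687772, minus strand) was well above background on all 6 SM30 arrays, with controls at 4.22, 4.36 and 5.29 and treated arrays at 4.19, 4.43 and 4.36. The SM30 change was −0.30 (95% interval −0.90 to 0.30, limma adjusted p = 0.507), with pair C at −0.93 and pairs A and B at −0.03 and 0.07. With AS30 at 22 h, treated arrays gave 4.94, 4.42 and 5.12 and controls 2.56, 2.66 and 4.13. Of the 22 h arrays, 2 treated arrays and 0 controls were well above background. The fitted change of 1.37 rests on 2 pairs and did not pass (limma adjusted p = 0.064), and a bound set by the detection limit of the controls gives no fold above 1.

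**Figure D4:**
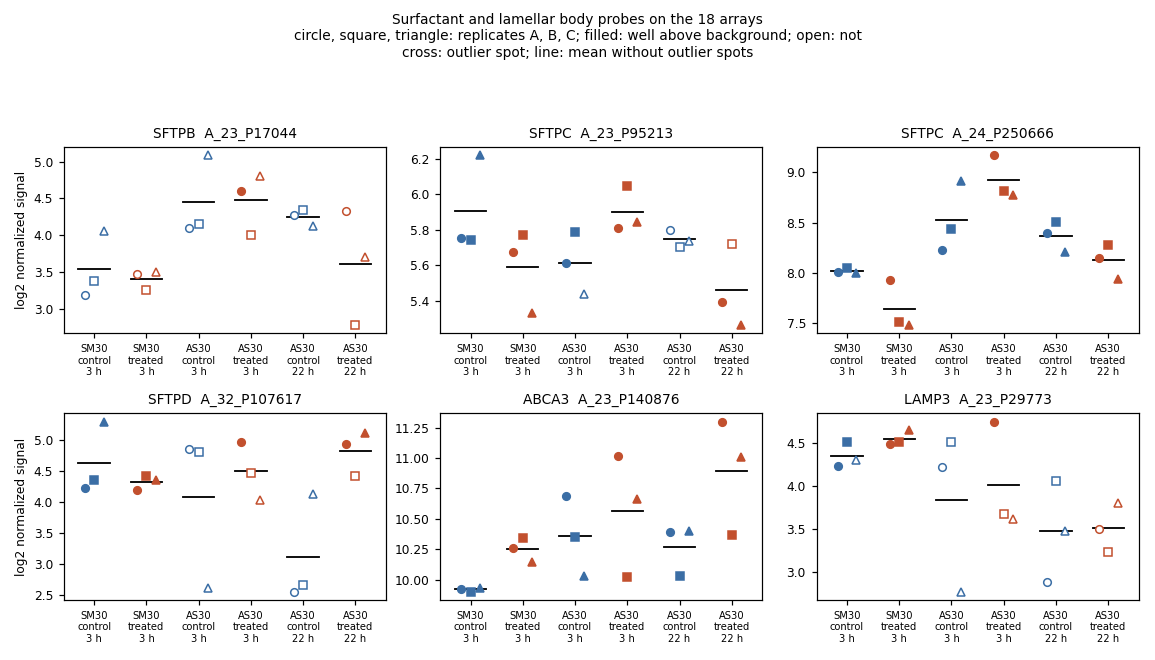
Normalized log2 signal of the surfactant protein and lamellar body probes by group, drawn as in the plot of FOXA probes. ABCA3 lies between 9.90 and 11.30 on all arrays with filled symbols throughout, while SFTPB has 1 filled symbol and LAMP3 6.

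The NPs were compared at the same dose and time by testing SM30 against AS30 ratios at 3 h, 16 probes of these genes among all probes tested. No probe passed in limma, and 0.014% of all probes did. At an unadjusted p under 0.05, 5 of the 16 would pass, beside 14.6% of all probes. The probe with the smallest p was AQP5, where the SM30 change was lower than the AS30 change by −0.96 (95% interval −1.54 to −0.38, limma adjusted p = 0.231). FOXA3 differed by −0.60 on A_23_P208737 (95% interval −1.01 to −0.18, adjusted p = 0.25) and by 1.39 on A_23_P142174 (0.15 to 2.63, adjusted p = 0.303) on the other, dim probe, so its probes point to opposite sides. SFTPC differed by −0.77 (95% interval −1.39 to −0.15, adjusted p = 0.279) on A_24_P250666. For FOXA2 the 2 probes that move together gave differences of −0.03 (95% interval −0.61 to 0.55) and −0.10 (−0.61 to 0.41), which leave room for a difference of either sign.

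For AS30 the changes at both times were compared, 22 h minus 3 h, and 0 of 15 probes passed in limma, with 0.0285% of all probes called. At an unadjusted p under 0.05, 6 of the 15 would pass, beside 16.9% of all probes. Besides AQP3, 4 probes had intervals off 0, at limma adjusted p-values from 0.2 to 0.286. AQP5 differed by −0.80 (95% interval −1.38 to −0.22) and SFTPC on A_24_P250666 by −0.64 (−1.26 to −0.02). The other probes were FOXA3 on A_23_P142174 and SFTPD, whose 22 h controls were well above background on 0 arrays, so that no difference in level is given for them. FOXA1 and FOXA2 differences between the times had intervals that include 0 on all 5 of their probes.

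Controls were compared with each other as a background for these changes, in a limma fit of the 18 arrays as 6 groups. Between AS30 controls at 22 h and 3 h, 0 of 15 probes passed, and 1.3% of all probes did. At an unadjusted p under 0.05, 3 of the 15 would pass, beside 14.9% of all probes. FOXA3 on A_23_P208737 differed there by 0.01 (95% interval −0.34 to 0.35) and AQP3 on A_23_P112481 by 0.13 (−1.10 to 1.36). FOXA3 on A_23_P142174 was not well above background on the 22 h controls, at 5.68 to 6.21, and 3 h control B, at 5.96, lies within that range. No difference was called there (limma adjusted p = 0.194).

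SM30 controls differed from AS30 controls at 3 h on 26.8% of all probes and on 3 of 16 probes of these genes, all lower in the SM30 controls. These were FOXA3 on A_23_P142174 by −1.93 (limma adjusted p = 0.0183), SFTPC on A_24_P250666 by −0.51 (adjusted p = 0.0479), and SFTPB (adjusted p = 0.044). SFTPB was not well above background in either group, so no difference in level is given for it. Each of the 6 control arrays, when left out, ended at least 1 of these calls, and none held without AS30 control C. NP-free cells of both sets are the same line at the same time, and slide, scan day and set cannot be told apart. The FOXA3 probe that carried the call after SM30, A_23_P208737, differed by −0.27 between these controls (95% interval −0.61 to 0.08).

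The promoter sequences of the called genes FOXA3 and AQP3, and of FOXA1, are shown because the FOXA factors bind a known forkhead motif. FOXA2 and LAMP3 had no promoter window, and SFTPC was left out of the search. Windows of 250 bases before the gene start, from RefSeq on GRCh38.p14, were used for 7 of the 10 genes. They were searched on both strands for the forkhead forms TGTTTAC and TGTTTGC, the NKX2-1 core CTCAAG, the SP1 box GGGCGG, the AP-1 site TGANTCA and the TATA box TATAAA, and capitals mark each match. FOXA3 lies at chr19:45864076-45864325 on the plus strand, AQP3 at chr9:33447594-33447843 and FOXA1 at chr14:37595250-37595499 on the minus strand.
FOXA3: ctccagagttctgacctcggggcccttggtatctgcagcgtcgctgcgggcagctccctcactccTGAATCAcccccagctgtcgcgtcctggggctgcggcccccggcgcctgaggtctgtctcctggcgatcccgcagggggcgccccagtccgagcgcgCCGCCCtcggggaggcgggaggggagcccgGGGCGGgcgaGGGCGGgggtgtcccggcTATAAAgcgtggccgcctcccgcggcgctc
AQP3: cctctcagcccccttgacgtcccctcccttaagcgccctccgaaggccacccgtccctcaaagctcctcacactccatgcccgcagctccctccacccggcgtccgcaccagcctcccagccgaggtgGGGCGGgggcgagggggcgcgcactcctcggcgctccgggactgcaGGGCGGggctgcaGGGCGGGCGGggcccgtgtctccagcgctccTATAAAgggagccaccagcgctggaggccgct
FOXA1: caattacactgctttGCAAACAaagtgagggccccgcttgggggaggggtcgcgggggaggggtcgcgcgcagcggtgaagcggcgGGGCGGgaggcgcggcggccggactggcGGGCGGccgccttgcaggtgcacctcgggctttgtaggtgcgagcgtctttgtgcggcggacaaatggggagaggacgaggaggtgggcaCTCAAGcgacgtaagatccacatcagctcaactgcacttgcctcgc

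The FOXA3 window holds GGGCGG 3 times, TGANTCA 185 bases and TATAAA 30 bases before the start. The AQP3 window holds GGGCGG 4 times, the last pair overlapping, and TATAAA 32 bases before the start. Among the windows of these 7 genes only that of FOXA1 held a forkhead form, TGTTTGC on the reverse strand 235 bases before the start, and it also holds CTCAAG at 46. Over all 35116 windows of this length, TGTTTAC was in 3.0%, TGTTTGC in 3.2%, CTCAAG in 10.4%, GGGCGG in 42.6%, TGANTCA in 6.6% and TATAAA in 10.7%. The windows of FOXA3, AQP3 and FOXA1 were 75.2%, 73.6% and 67.2% G and C, above the median of 58.0%. These matches describe letters in the window and say nothing of binding.

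Genes that vary like the most variable of these probes were listed by Pearson's r over the 18 arrays among 23029 other probes. Closest to AQP3 on A_23_P112481 were APOH (r = 0.92), a plasma glycoprotein, and SPDEF (r = 0.89), an epithelial ETS factor of goblet cells. The third was a transcript without a symbol in the files, at r = 0.87. Closest to its probe A_23_P112482 were the integrin gene ITGB4, APOH and ACSM3, all at r = 0.87. FOXA3 on A_23_P142174 was closest to MYBPC2 (r = 0.91), CACNG7 (r = 0.84) and CNGB1 (r = 0.82). That probe was well above background on 11 arrays. AS30 controls A and C at 3 h, at 7.93 and 8.62, stand above all other arrays on it. How far these r values rest on those arrays was not tested. The points share slides, scan days and normalization, and the order is a description.

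The FOXA factors act beside other endodermal factors, and a list of 32 such partners and targets gave 5 called genes of 23 tested after SM30. For this and the lists that follow, the background is the share of all probes called, 7.49% after SM30, 2.52% after AS30 at 3 h and 3.58% at 22 h, and no count is read as particular to a list. Log2 changes follow in parentheses. SOX2, a factor of airway progenitors, fell (−1.91), as did the nuclear receptor NR2F2 (−1.22) and the fibrinogen gene FGA (−0.96). TTR, a thyroid hormone carrier, rose (1.47), and so did CEBPB, an inducible bZIP factor (1.14). The median log2 change of the list was −0.39, and the medians over all probes are those given above.

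After AS30 at 3 h, 3 of 23 were called: CEBPB (1.01) and the trefoil factor TFF1 (0.77) rose, and NR2F2 (−0.59) fell. The list median was −0.31. At 22 h, 2 of 22 were called, TFF1 at 0.97 and SPDEF at −0.98, with a median of −0.36. TFF1 was also lower in 22 h than in 3 h controls, by −1.82, so its rise at each time is over a different control level.

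Among 38 other forkhead genes 30 were tested, and the 4 called after SM30 all rose. They were FOXP1 at 1.07 and FOXN2 at 1.04, with FOXO3, a factor held back by growth signals, at 0.96 and FOXD1 at 0.42 on its brighter probe. The other FOXD1 probe, A_24_P103327, had the opposite sign, at −0.30 (limma adjusted p = 0.514). The list median was −0.22. After AS30 at 3 h FOXC1 fell on its brightest probe (−0.56), with a list median of 0.21. Its probes A_24_P916317 at 0.64 (limma adjusted p = 0.398) and A_32_P205110 at −0.37 (adjusted p = 0.168) did not pass. None of the list was called by limma at 22 h, with a median of −0.13. In the controls FOXO1 was lower at 22 h than at 3 h by −1.50.

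Of 12 other aquaporin names, 11 were on the arrays and 6 were tested. AQP11, an intracellular channel, fell after SM30 (−0.54) and rose after AS30 at 22 h (0.84), and none of the 6 was called after AS30 at 3 h. The list medians were −0.35, 0.28 and 0.24 in the order SM30, AS30 at 3 h and AS30 at 22 h. Of 16 genes of epithelial ion transport, SGK1, a kinase that raises sodium uptake, and KCNN4, a potassium channel, rose after SM30 (0.82 and 0.71), 2 of 14 tested. KCNN4 also rose after AS30 at 3 h (0.88), 1 of 13 tested, and none of 14 was called at 22 h. The medians were −0.08, −0.19 and 0.11.

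The other type II genes, 32 listed and 24 tested, gave 3 higher and 1 lower after SM30. The chemokine CXCL2 (1.35), ELF3, an epithelial ETS factor (1.21), and KLF5 (0.82) rose, and NFIB, a factor of lung maturation, fell on its brightest probe (−0.59) and was not called on the others. Those that rose are a chemokine and epithelial transcription factors. After AS30 at 3 h only ELF3 was called, at 1.75. At 22 h ACSL4, a ligase of long-chain fatty acids (1.18), and CTSH, a protease that processes SFTPB (0.82), rose, and the surfactant protein gene SFTPA1 fell (−0.87). SFTPA1 has a near-identical copy, SFTPA2, and its probe may report both. The medians were −0.00, 0.04 and −0.09.

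Of 25 genes of phospholipid synthesis, which supplies the lipid of surfactant, 24 were tested. After SM30 LPIN1, which makes diacylglycerol, rose (1.59), with the phospholipase PLD1 (0.88) and the choline kinase CHKB (0.67), and GPAM, an acyltransferase, and the lipid transfer gene PCTP fell (−0.72 and −0.50). The other probes of LPIN1 (2.46, limma adjusted p = 0.0971) and GPAM (−0.26, adjusted p = 0.424) did not pass after SM30. PLD1 also rose after AS30 at 3 h on its brightest probe (0.87). Its other probes, at 0.34 and 0.76, did not pass there (limma adjusted p = 0.66 and 0.0839). At 22 h LPIN1 (1.51) and PPAP2A (0.75) rose, and the other LPIN1 probe, at 0.92, did not pass (limma adjusted p = 0.423). The medians were 0.16, 0.11 and 0.04. In the tests of SM30 against AS30 and of 22 h against 3 h, no gene of any of the 6 lists was called by limma. Of the 36 list calls after NPs, all kept their sign in every alternative fit tried, and 2, NR2F2 and FOXP1 after SM30, were called with slide as a block.

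**Figure D5:**
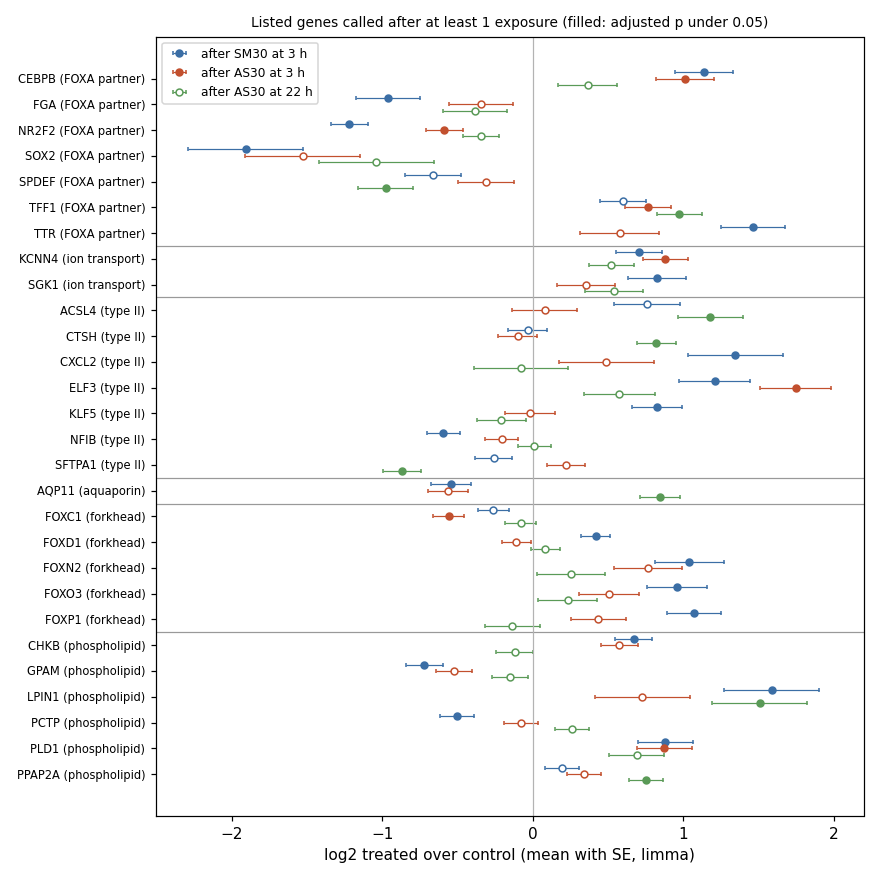
Log2 change of treated over control, as limma mean with SE, for the listed genes called after at least 1 exposure, grouped by list, with SM30 at 3 h in blue, AS30 at 3 h in red and AS30 at 22 h in green. Filled symbols passed an adjusted p of 0.05, SOX2 at −1.91 and LPIN1 at 1.59 after SM30 among them.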

How the data were processed

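The submitters' samples are 18 one-colour Agilent arrays of A549 cells. The authors scanned the slides, ran Feature Extraction 10.5.1.1 and deposited one file per array, whose intensity columns are linear. The authors also deposited a table of intensity values after quantile normalization. Groups and letters came from the labels.

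The log2 of the processed intensity deposited was normalized by the quantile method over 18 arrays (R 4.3.3, limma 3.58.1, the data.table package at 1.17.8, statmod 1.5.0). Spots not positive and significant, and outlier spots, were set to missing, replicate spots were averaged, and probes missing on over 33% of arrays were removed. The 9 log2 ratios over same-letter controls were fitted with limma as 3 classes with 6 residual degrees of freedom. Controls were compared in a fit of 6 groups. The scripts were tested on simulated data. The number of arrays limits precision. Probes were named as in the files, on hg18.

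All probes of the 10 genes were named, and from each list the called genes with the largest changes, at most 2 each way, plus any gene that a count of 5 or fewer refers to. Both the 10 genes and the lists were chosen with earlier results of these data known, so no list is independent support. A few listed genes are not reported here and were left out of the list counts. For listed genes with several probes the brightest was used, and other probes of some called genes did not pass. Same-letter treated and control arrays correlated in their deviations at r from −0.09 to 0.48 (median 0.09, n = 9), which does not settle that letters pair the arrays, and ratios were used because the methods divide by the corresponding control. Alternatives were other scalings, background corrections and filters, the authors' table, slide as fixed or random block, no pairing, and each replicate left out. Of these, the within-slide comparison of 22 h and 3 h controls and the refits of listed genes were chosen after seeing the data.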

Additional observations from a re-analysis of the deposited data

Results flagged for a closer look

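Groups of 3 arrays are too small for a check of single outlying arrays. In 6 cases, each of a listed gene and none of the 10 genes above, every pair of one exposure moved up and every pair of another moved down. These come from the comparisons of SM30 with AS30 at 3 h and of AS30 at 22 h with 3 h, and SM30 at 3 h was not set against AS30 at 22 h, which differ in particle and time. Each difference was tested by limma and none passed. Between SM30 and AS30 at 3 h these were FOXD1 on its brighter probe, with pairs from 0.39 to 0.44 against −0.18 to −0.05 and a difference of 0.53 (adjusted p = 0.23), and SFTPA1, with a difference of −0.48 (adjusted p = 0.288). Between AS30 at 22 h and 3 h they were AQP11 with 1.41 (adjusted p = 0.0758), SFTPA1 with −1.09 (adjusted p = 0.0886), CHKB with −0.69 (adjusted p = 0.143) and FOXD1 with 0.19 (adjusted p = 0.524). The AQP11 pairs were −0.69, −0.77 and −0.23 at 3 h and 0.76, 0.75 and 1.02 at 22 h. The SFTPA1 pairs were 0.16, 0.33 and 0.18 at 3 h and −1.17, −0.70 and −0.74 at 22 h.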

How the results depend on the processing

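No call turned its sign under any alternative, and counts of called probes moved as follows. The 1 call after SM30 became 2 with 75th percentile scaling, 2 with normexp background, 3 with spots not well above background missing, 3 with only probes measured on all 18 arrays, 0 with slide as a fixed block, 5 with slide as a random block and 0 within one slide. The 1 call after AS30 at 3 h became 0 with no filter, 0 with spots not well above background missing, 0 with slide fixed and 4 with slide random. The 3 calls at 22 h became 1 with no filter, 0 with slide fixed and 0 within one slide. The 3 calls between SM30 and AS30 controls became 1 with no filter and 1 with dim spots missing. Without the replicate block, in the fit of 6 groups with no pairing, the counts were 4 after SM30, 2 after AS30 at 3 h and 1 at 22 h. FOXA2 then passed on 3 probes after SM30 (adjusted p = 0.0354, 0.0131 and 0.0274) and AQP3 did not pass (0.0542 and 0.102). Dividing by the average of all 3 controls, which leaves the spread of controls out of the test, gave 7, 7 and 7, and 5 for each difference of responses. Over all probes that setting called 33%, 35.0% and 31.4%, and 19.1% and 21.2% for the differences. Slide as a fixed block called 1.4%, 0.122% and 0.0261% of all probes, slide as a random block 10.7%, 13.7% and 6.81%.

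Leaving out one replicate gave 1 to 1 calls after SM30, 0 to 3 after AS30 at 3 h (0 without pair A, 3 without pair C), 0 to 1 at 22 h (0 without A or C, 1 without B), 0 to 1 between AS30 controls (FOXA3 without 3 h control B, SFTPD without 22 h control C) and 0 to 2 between SM30 and AS30 controls (0 without AS30 control C). FOXA3 after SM30 was called in 13 of 15 alternatives, the other FOXA3 probe after AS30 at 3 h in 10 of 13, FOXA3 at 22 h in 11 of 15, and AQP3 in 8 and 6 of 15. The causes were not tested. A slide block could not be fitted between SM30 and AS30 controls, which share no slide. Dim signal limits SFTPB, SFTPD, LAMP3, 1 FOXA3 probe and, at 22 h, the dimmer SFTPC probe.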
